A study of Medicago truncatula with 9 samples.

Results

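The high-numbered 21-nt miRNAs of Medicago truncatula were chosen by name and length, as entries called mtr-miR with a number of 5000 or more and a mature sequence of 21 nt. The entries of mtr-miR5205, mtr-miR5208, mtr-miR5211, mtr-miR5213, mtr-miR5232 and mtr-miR5239 were left out. This gave 77 of the 905 entries in the count table. Of the 77, 5 had 0 reads in every library (mtr-miR5037a, mtr-miR5037b, mtr-miR5037c, mtr-miR5740 and mtr-miR5758). The other 72 entries had 57 distinct count profiles, because entries of a number with the same counts in all libraries were counted once. Seedlings of genotype R108 were grown from germination for 72 h in alkali (Na2CO3 with NaHCO3, 5 mM), salt (NaCl with Na2SO4, 20 mM) or distilled water, and small RNA of whole seedlings was sequenced in 3 libraries per condition (AS1 to AS3, SS1 to SS3 and DW1 to DW3). The seeds had been scarified with acid and surface-sterilised in all 3 conditions. The methods give 3 biological replicates and describe 1 dish for each condition, and they do not say whether the replicates came from separate dishes, so the p-values measure the spread between these libraries, which may be technical. A level in a whole seedling does not tell a change within cells from a change in the share of a tissue.

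Plant miRNAs are cut from hairpin precursors by a Dicer-like enzyme, which leaves a duplex of a 5p and a 3p strand. One strand is loaded into an Argonaute protein and guides cleavage or translational repression of mRNAs that pair with it almost perfectly. miRBase gives numbers in order of submission, so numbers as high as these belong to miRNAs described late, many of them known from Medicago or other legumes alone. Such young miRNAs are usually weakly expressed, often come from 1 locus and mostly lack a target shown by experiment. For this reason no target is given for the miRNAs below.

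The mature sequences of the miRNAs on which the comparisons turn are shown to identify them, with the seed (bases 2 to 8 from the 5′ end) in capitals. They were taken from the sequence column of the study's lists of responsive miRNAs, which held 16 of the 77 entries with 13 distinct sequences. Since those lists were drawn up from these libraries, the sequence features below describe miRNAs that the study picked for their response. The first lines are the miRNAs called in alkali or salt, and the last are those discussed beside them.
mtr-miR5252: uGAGAGCUcacugaagucugc
mtr-miR5261: uCAUUGUAgauggcuuuggcu
mtr-miR5558-5p: uUUUCCAAuucuaagucuauc
mtr-miR5256: uAAUGGAUuauguaagauuaa
mtr-miR5251: aGUAGAUCuaguuggugucuu
mtr-miR5248: uUUUUAGUuggcaugcauuca
mtr-miR5558-3p: uAGAUUUAgaauuagaaaagc
mtr-miR5561-5p: cAUUUGGAgagacauagacaa
mtr-miR5229a and mtr-miR5229b: uUAGCAGGaagagugacuaug
mtr-miR5255: uGACUUGAuagaggacauggg
mtr-miR5241a, mtr-miR5241b and mtr-miR5241c: uGACUGAAuggaagagugcau

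The 13 sequences had 13 different seeds, so no seed was shared between miRNAs of different numbers. mtr-miR5241, mtr-miR5255 and mtr-miR5263 had the same first 5 bases. The first base was U in 10 of the 13, the base favoured by the main miRNA-binding Argonaute of plants. The GC content ran from 19.05% in mtr-miR5256 to 52.4% in mtr-miR5252, with a median of 38.1%. The sequences of mtr-miR5558-5p and mtr-miR5558-3p paired with each other at 18 of 19 positions (17 Watson-Crick and 1 G-U pair) when laid out with overhangs of 2 nt at both 3′ ends, the form of a Dicer-like product.

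The libraries held 3746957 to 7191272 miRNA counts. Levels are given as CPM, the counts per 1000000 after each miRNA total was multiplied by a TMM (trimmed mean of M-values) factor. The factors ran from 0.768 in AS1 to 1.35 in DW1. These libraries also lay at the ends of the first principal component of all miRNAs. A miRNA was called when edgeR's quasi-likelihood test over all 9 libraries gave a Benjamini-Hochberg adjusted p under 0.05 and the fold change was over 1.5. Of the 905 entries, 647 (490 distinct profiles) had enough counts for the test. Of the 57 high-numbered profiles, 31 were tested. The 31 hold the 4 mtr-miR7696 3p entries, whose counts differed by 5 at most in any library and which share nearly all their reads, so they are 28 when these are taken as 1.

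Most of the high-numbered 21-nt miRNAs were scarce. The median of their mean level was 18.4 CPM, against 155 CPM for the 63 tested profiles of 21-nt miRNAs numbered below 1000 and 20.1 CPM for the 78 numbered from 1000 up to 5000. mtr-miR5256 was the most abundant, at 1161 ± 263 CPM (SD, n = 9 libraries), followed by mtr-miR5229a and mtr-miR5229b at 555 ± 123 CPM and mtr-miR7696a-3p at 283 ± 76.2 CPM. The order of these 3 was the same in each of the 9 libraries. mtr-miR5558-3p, mtr-miR5261 and mtr-miR5558-5p came next at 178 ± 33.3, 130.03 ± 32.8 and 97.1 ± 23.5 CPM, and neighbours in this order overlapped within their SDs. Of the 31 profiles tested, 8 averaged over 100 CPM and 12 under 10 CPM. The mtr-miR7696 3p entries a to d are all among the 8. Each of them was counted here and in the median of 18.4 CPM, whereas the ranking names only mtr-miR7696a-3p. With the mtr-miR7696 3p entries counted once, mtr-miR5256 alone made up 43.2% ± 3.88 of the summed level of the 21-nt miRNAs chosen here, mtr-miR5229a 20.6% ± 1.94 and mtr-miR7696a-3p 10.8% ± 3.37 (SD, n = 9). The numbers left out at the start, such as mtr-miR5213, are not in this sum or ranking.

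**Figure D1:**
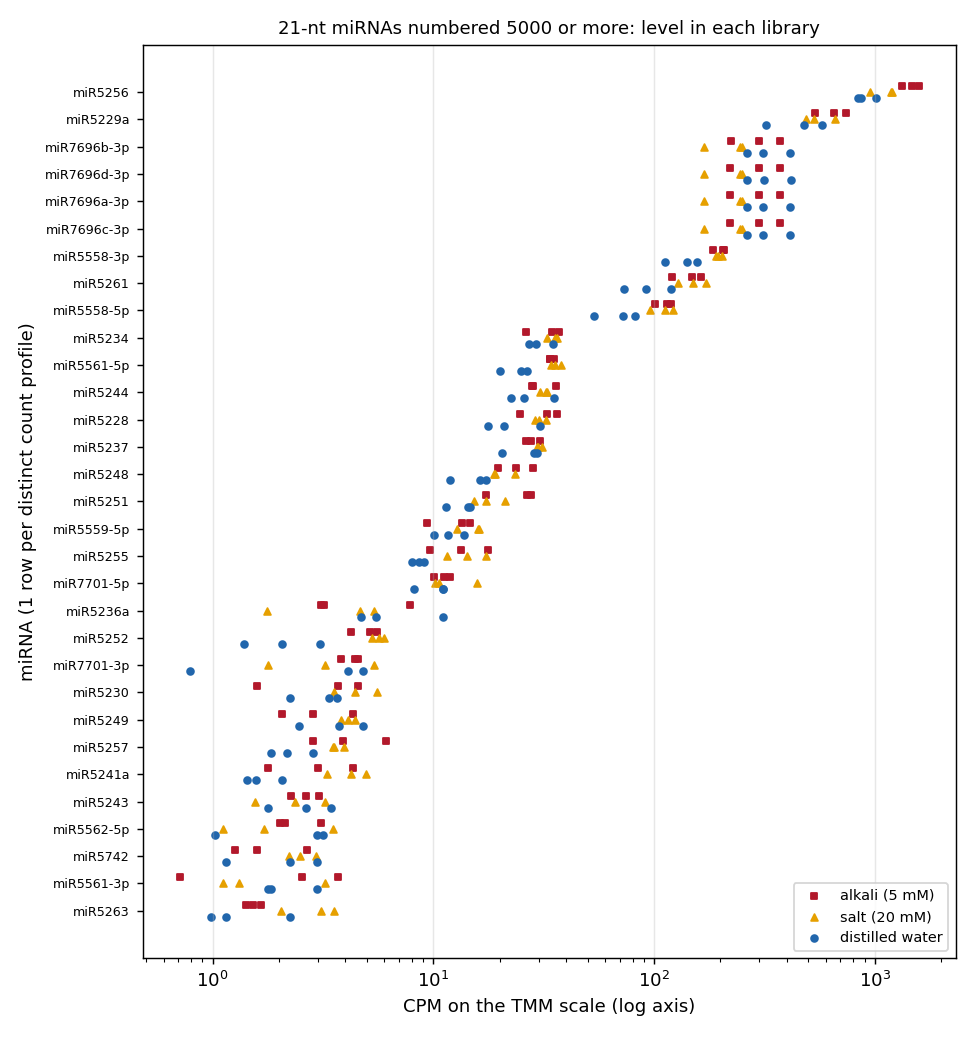
Level of each tested high-numbered 21-nt miRNA in every library, in CPM on a log axis, with 1 row per distinct count profile and alkali, salt and distilled water libraries as squares, triangles and circles. mtr-miR5256 lies at the top at 844 to 1581 CPM, and 12 profiles average under 10 CPM.

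In alkali, 6 of the 31 profiles rose against distilled water and 0 fell, where 9.18% of all 490 profiles were called higher and 10.0% lower. The 6 were mtr-miR5252 (2.27-fold), mtr-miR5251 (1.78-fold), mtr-miR5558-5p (1.61-fold), mtr-miR5256 (1.61-fold), mtr-miR5248 (1.57-fold) and mtr-miR5261 (1.52-fold). As a share, 19.4% of the 31 were called higher. Of the 31 log2 fold changes 24 were above 0, where 212 of 490 were over all profiles. Among the 21-nt miRNAs numbered below 1000, 51 of 63 were above 0. At an unadjusted p under 0.05, 11 of the 31 passed, where 43.3% of all profiles did.

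mtr-miR5256, the most abundant of them, had 1581, 1328 and 1473 CPM in alkali, against 844, 1014 and 870 CPM in distilled water. Every alkali library lay above every distilled water library. Its log2 fold change was 0.68 (standard error 0.173, adjusted p = 0.00931 from edgeR), and the call held without any 1 of the 9 libraries. mtr-miR5251 had 26.6, 27.9 and 17.3 CPM in alkali, against 11.5, 14.7 and 14.3 CPM in distilled water. The lowest alkali library, AS3, was close to the highest distilled water library, and the adjusted p of 0.0143 from edgeR became 0.0691 without AS2. mtr-miR5558-5p was at 112 ± 9.71 CPM in alkali and 69.3 ± 14.5 CPM in distilled water (SD, n = 3 each), with adjusted p = 0.0122 from edgeR and 0.0593 without DW2.

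mtr-miR5252 had the highest fold change and the fewest reads of the 6, with 25, 24 and 22 counts in the alkali libraries, against 7, 9 and 15 counts in the distilled water libraries. In CPM it was at 5.16, 4.26 and 5.58 in alkali and at 1.38, 2.07 and 3.07 in distilled water, so the groups did not overlap. The log2 fold change was 1.18 (standard error 0.380, adjusted p = 0.0339 from edgeR). The call was lost without DW1, DW2 or AS1, where the adjusted p reached 0.139. mtr-miR5261 was at 145 ± 21.7 CPM in alkali and 95.0 ± 23.4 CPM in distilled water, and mtr-miR5248 at 23.9 ± 4.29 CPM in alkali and 15.2 ± 2.93 CPM in distilled water (SD, n = 3 each). Their adjusted p were 0.0330 and 0.0420 from edgeR. mtr-miR5261 lost its call without DW1, DW2 or AS1 (adjusted p up to 0.142), and mtr-miR5248 without DW1, DW2, SS2, SS3 or AS1 (up to 0.198).

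With 1 library left out, the count of 6 fell to 3 (DW1 or AS1) or 2 (DW2) and became 11 for DW3. It was 2 with DW1 and AS1 both left out (mtr-miR5256 and mtr-miR5558-5p). The 11 included all 6. Without AS3, mtr-miR5236a was called lower, the 1 profile to fall in any of these refits. These counts stand without the calls over all profiles in the same refits, so they do not show a change particular to these miRNAs.

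**Figure D2:**
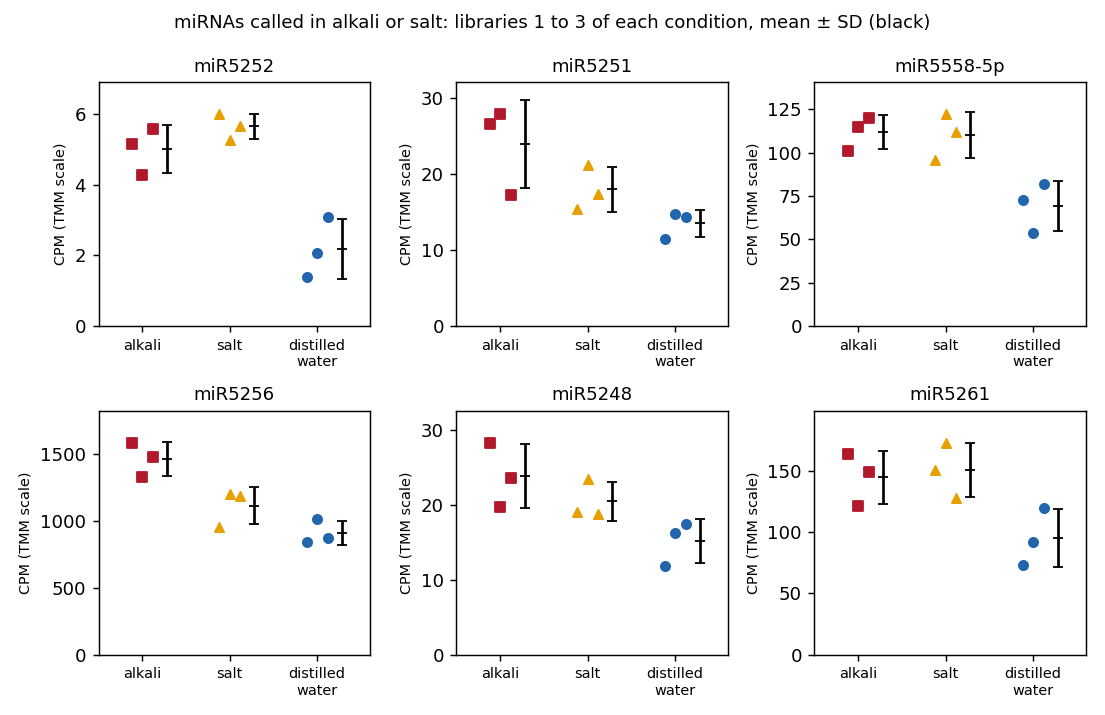
CPM in each library for the 6 high-numbered 21-nt miRNAs called in alkali or salt, with the mean ± SD of each condition (n = 3) in black and every axis starting at 0. In all 6 panels the alkali libraries lie above the distilled water libraries, and in mtr-miR5261 the lowest alkali library (121 CPM) is next to the highest distilled water library (120 CPM).

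In salt, 3 of the 31 profiles rose against distilled water and 0 fell, where 4.69% of all 490 profiles were called higher and 3.88% lower. mtr-miR5252 rose 2.59-fold, mtr-miR5558-5p 1.58-fold and mtr-miR5261 1.58-fold. These 3 were called in alkali as well. The salt and alkali comparisons use the same distilled water libraries, so their fold changes are not independent of each other. At an unadjusted p under 0.05, 12 of the 31 passed in either direction, where 24.5% of all profiles did. The 12 included the mtr-miR7696 3p entries a to d, which were lower in salt and share nearly all their reads.

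mtr-miR5252 had 5.99, 5.27 and 5.67 CPM in salt, against 1.38, 2.07 and 3.07 CPM in distilled water. The salt libraries lay close together, at 27, 18 and 43 counts, and above every distilled water library. Its log2 fold change was 1.37 (standard error 0.374, adjusted p = 0.0318 from edgeR). mtr-miR5558-5p had 95.9, 122 and 112 CPM in salt, against 72.5, 53.5 and 81.9 CPM in distilled water, and an adjusted p of 0.0318 from edgeR. mtr-miR5261 had 151, 173 and 128 CPM in salt, against 73.1, 92.3 and 120 CPM in distilled water. The lowest salt and the highest distilled water library of mtr-miR5261 were near each other, and the adjusted p was 0.0329 from edgeR.

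Each of the 3 calls in salt rested on several of the libraries. mtr-miR5252 lost its call without DW1, DW2 or any salt library, mtr-miR5558-5p without DW2 or any salt library, and mtr-miR5261 without DW1, DW2, SS1 or SS2, with adjusted p from edgeR of up to 0.119, 0.127 and 0.148. The count of 3 was 1 without DW1 or SS3, 0 without DW2, SS1 or SS2, 8 without DW3, 6 without AS3 and 1 with DW1 and AS1 both left out (mtr-miR5558-5p). As in alkali, these counts stand without the calls over all profiles in the same refits.

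**Figure D3:**
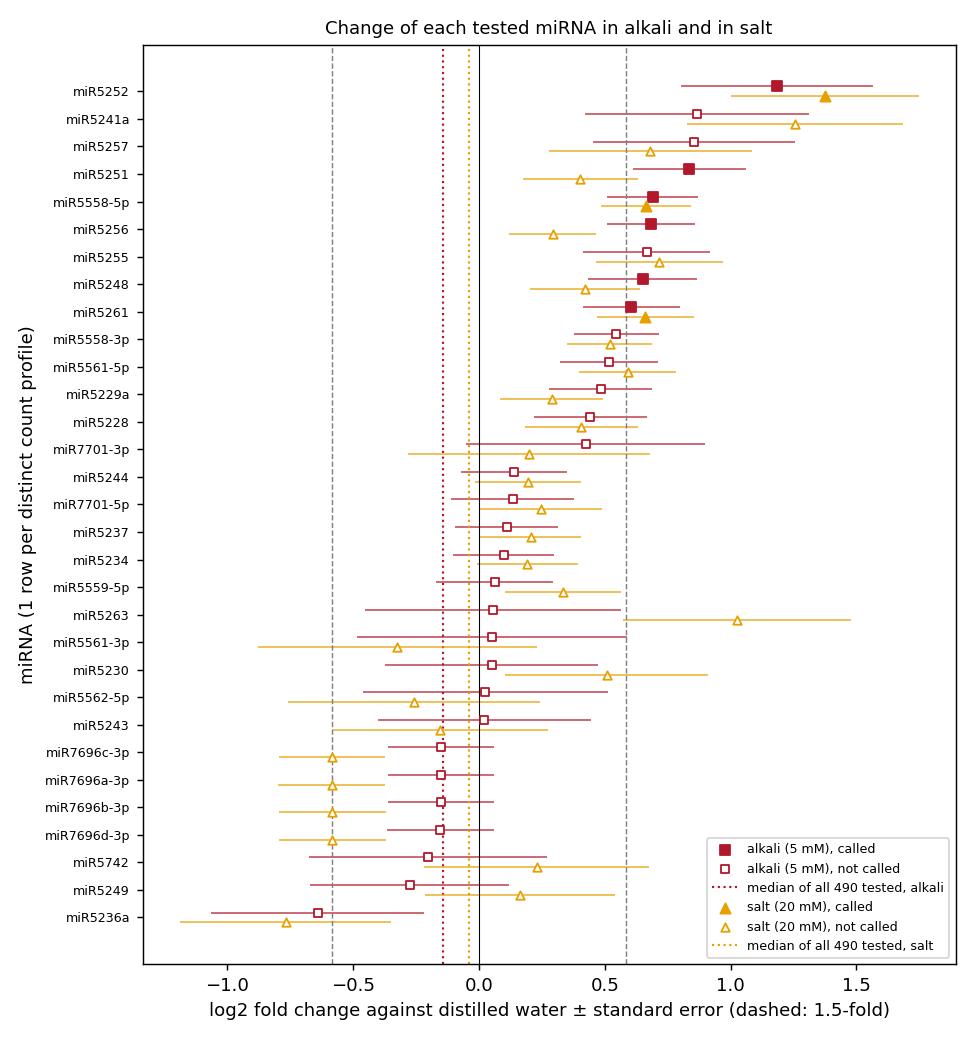
log2 fold change (± standard error) against distilled water of each tested high-numbered 21-nt miRNA, in alkali (squares) and salt (triangles), with called values filled. Dashed lines mark a 1.5-fold change, and dotted lines the median of all 490 tested profiles (-0.14 in alkali and -0.04 in salt).

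Between alkali and salt, edgeR called 0 of the 31 profiles in either direction, where it called 2.65% of all profiles higher and 0.816% lower in alkali. DESeq2 and limma called 0 of the 31 as well, but their calls over all profiles are not given here. In edgeR 2 of the 31 passed an unadjusted p under 0.05, where 16.5% of all profiles did. One was mtr-miR5256, at 1461 ± 127 CPM in alkali and 1114 ± 136 CPM in salt (SD, n = 3 each), with a log2 difference of 0.39 (standard error 0.173, adjusted p = 0.214 from edgeR). The groups did not overlap. The other was mtr-miR5263, with 8, 8 and 6 counts in the alkali libraries, against 14, 7 and 27 counts in the salt libraries (adjusted p = 0.247 from edgeR). In CPM mtr-miR5263 was at 1.65, 1.42 and 1.52 in alkali and at 3.11, 2.05 and 3.56 in salt, again without overlap. mtr-miR5251 and mtr-miR5248, called in alkali and not in salt, had alkali to salt log2 differences of 0.43 ± 0.219 and 0.23 ± 0.213 (± standard error), so neither was shown to differ between the treatments.

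The size of these changes depended on how the libraries were scaled. The median log2 fold change of the 31 was 0.13 in alkali and 0.29 in salt, beside -0.14 and -0.04 over all 490 profiles. With the mtr-miR7696 3p entries taken as 1 it was 0.28 in alkali and 0.31 in salt. Scaling to the miRNA total with no TMM factor moved the median of all profiles by -0.45 in alkali and -0.22 in salt, and DESeq2's size factors moved it by 0.11 in alkali. A scaling shifts all profiles of a library together, so it leaves the distance between the medians of the 31 and of all profiles nearly fixed, at 0.28 in alkali and 0.33 in salt with TMM. The calls moved with the scale. With no TMM factor 0 of the 31 rose in either treatment and the 4 mtr-miR7696 3p entries fell in both, with library sizes of clean reads 1 rose in alkali (mtr-miR5251) and 0 in salt, and with DESeq2's size factors 10 rose in alkali and 4 in salt. Over all 490 profiles the calls in alkali were 45 higher and 49 lower with TMM, 69 and 40 with DESeq2's size factors, 25 and 67 with clean reads and 14 and 192 with no TMM factor. In salt they were 23 and 19, 26 and 15, 4 and 3, and 11 and 36.

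**Figure D4:**
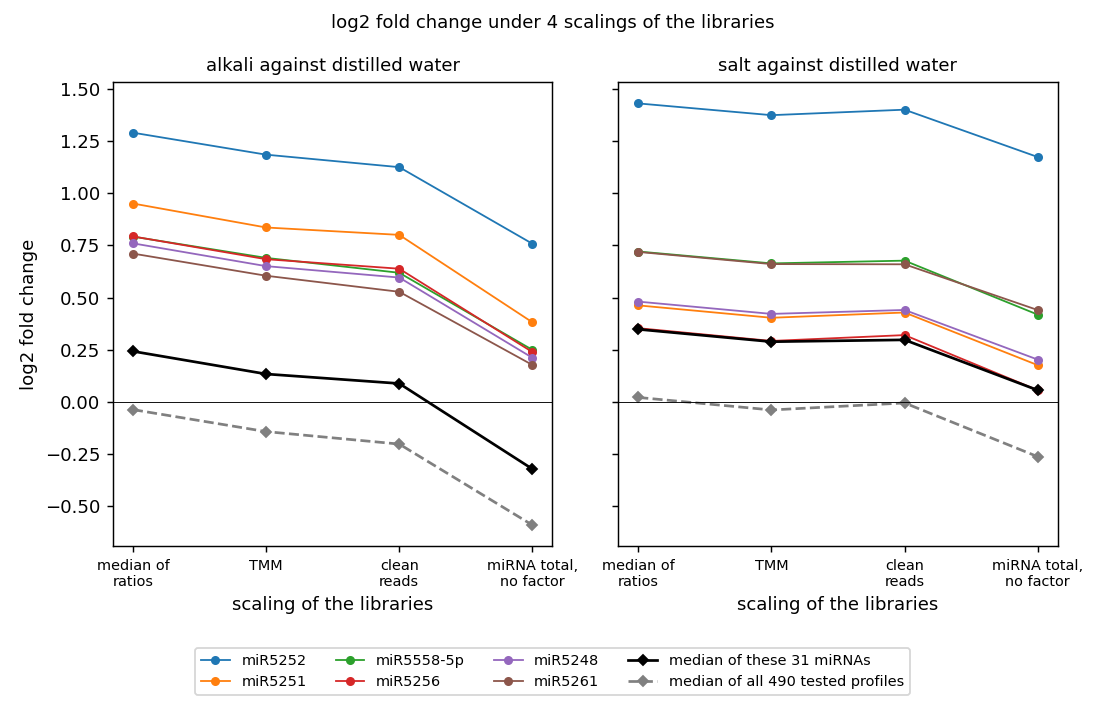
log2 fold change of the 6 called miRNAs, the median of the 31 high-numbered profiles (black) and the median of all 490 profiles (grey, dashed) under 4 scalings, in alkali and in salt. The lines fall together toward the miRNA total with no factor, where the median of all profiles is -0.59 in alkali and -0.26 in salt, and every called miRNA stays above 0.

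Several other miRNAs of the range, abundant or scarce, did not pass in the edgeR test with TMM, though some refits called them. DESeq2 called mtr-miR5229a, mtr-miR5255 and mtr-miR5561-5p higher in alkali, and mtr-miR5561-5p in salt. With no filter, edgeR called mtr-miR5241a, mtr-miR5255 and mtr-miR5561-5p higher in salt. With library sizes of clean reads or no TMM factor, none of these was called higher. mtr-miR5229a and mtr-miR5229b, which have the same sequence and counts, were at 643 ± 99.8 CPM in alkali, 562 ± 91.2 CPM in salt and 460 ± 129 CPM in distilled water (SD, n = 3 each), with overlapping libraries and adjusted p = 0.0777 in alkali and 0.399 in salt from edgeR. mtr-miR5561-5p was at 34.2 ± 0.725, 36.0 ± 1.89 and 23.9 ± 3.36 CPM in alkali, salt and distilled water (SD, n = 3 each). Each treated library was above each distilled water library, and edgeR gave adjusted p = 0.0601 in alkali and 0.0609 in salt. mtr-miR5255 was at 13.6 ± 4.05, 14.4 ± 2.85 and 8.57 ± 0.530 CPM in the same order, again without overlap, with adjusted p = 0.0601 and 0.0758 from edgeR. mtr-miR5241a, mtr-miR5241b and mtr-miR5241c, 1 profile, had 19, 17 and 25 counts in the salt libraries, against 8, 9 and 7 counts in the distilled water libraries. Their log2 fold change in salt was 1.26 (standard error 0.429, adjusted p = 0.0705 from edgeR), and 21, 17 and 7 counts were seen in alkali. In alkali 9 of the 31 profiles lay wholly above distilled water, where 16.9% of all profiles did, and in salt 11 did, where 13.5% of all profiles did.

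mtr-miR7696a-3p was the abundant miRNA with lower values in salt. It had 250, 245 and 169 CPM in salt, against 264, 314 and 415 CPM in distilled water, and 372, 300 and 222 CPM in alkali. The salt libraries lay below the distilled water libraries, and the alkali libraries spread across both. Its log2 fold change in salt was -0.59 (standard error 0.212, adjusted p = 0.0819 from edgeR), and the b, c and d entries gave the same adjusted p. With DW1 and AS1 left out the 4 entries were called lower in salt. They are the only profiles of the 31 that lay wholly below distilled water in salt. As they share nearly all their reads, they count as 1 of 28, where 10.6% of all profiles lay wholly below. mtr-miR5236a to mtr-miR5236e, 1 profile, had 56 counts in DW1 and 24 and 23 in the other distilled water libraries, against 15, 18 and 31 in alkali. Its log2 fold change in alkali was -0.64 (standard error 0.422, adjusted p = 0.230 from edgeR). In salt, with 21, 6 and 41 counts, its log2 fold change was -0.77 (standard error 0.421, adjusted p = 0.305 from edgeR).

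Both arms of the precursor were among these miRNAs for 9 precursors. In miR5558 the 3p strand was the more abundant, with 1.82 reads for each 5p read over all libraries. The 5p share of miR5558 reads was 35.9% ± 2.92 in alkali, 35.8% ± 2.47 in salt and 33.7% ± 5.86 in distilled water (SD, n = 3 each), so the groups differed by less than the spread in distilled water. mtr-miR5558-3p was at 200 ± 12.2, 196 ± 5.77 and 137 ± 22.3 CPM in alkali, salt and distilled water. Its fold changes were 1.46 and 1.43, under the threshold of 1.5, with adjusted p = 0.0281 in alkali and 0.0579 in salt from edgeR. The 5p strand led in miR5559 (91.4 to 100% of reads in a library), miR5561 (89.3 to 97.9%) and miR7701 (65.3 to 93.3%). In miR7696a the 3p strand held at least 99.5% of the reads in every library. The precursors miR7696a to miR7696d share these reads, and miR7699 had 13 reads on both arms in all.

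**Figure D5:**
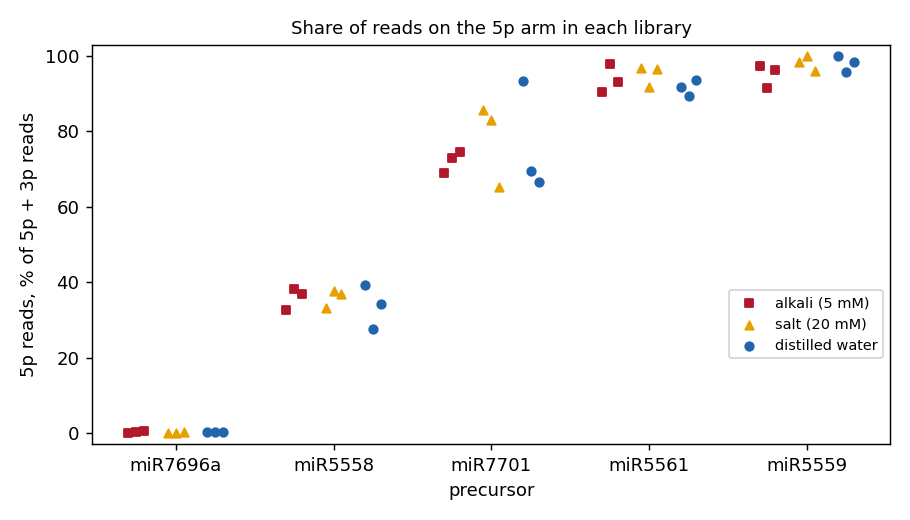
Share of reads on the 5p arm, as a percent of 5p and 3p reads, in each library for 5 precursors with both arms among the high-numbered 21-nt miRNAs. miR5558 lies between 27.5 and 39.2% in all libraries, miR7696a at 0.456% or less, and miR7701 has the widest spread, up to 93.3% in DW1.

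The remaining 26 profiles had too few counts for the test, with 84 counts or fewer in all 9 libraries together and at most 19 in a library. Of these, 13 had under 10 counts in all. mtr-miR5204 had 3, 6 and 10 counts in the alkali libraries and 2 in each salt library, against 0 counts in each distilled water library. Pooled over the libraries of a condition, this was 1.32 CPM in alkali and 0.387 CPM in salt, where 0 counts in the 3 distilled water libraries allow up to 3 counts, or 0.210 CPM, for counting error only. Fitted with no filter, its adjusted p from edgeR was 0.00114 in alkali and 0.159 in salt, while DESeq2 gave none for it. The miRNA was picked for these same counts, so the p-values add no separate support. mtr-miR5240 had 3, 1 and 1 counts in alkali and 0, 2 and 1 in salt, against 0 counts in each distilled water library, too few to give a fold change. In the other direction, mtr-miR5752a and mtr-miR5752b, 1 profile, had 0 counts in alkali and 1 in salt, against 4 counts in distilled water, and mtr-miR5254 and mtr-miR5563-3p had 0 counts in alkali, 2 and 3 in salt and 5 each in distilled water. These miRNAs were named after their counts were seen.

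Summed with the mtr-miR7696 3p entries counted once, the high-numbered 21-nt miRNAs chosen here were at 3149 ± 316 CPM in alkali, 2647 ± 252 CPM in salt and 2235 ± 291 CPM in distilled water (SD, n = 3 each). As a share of all miRNA counts, with no TMM factor, the same sum was 0.270% ± 0.0239 in alkali, 0.263% ± 0.0115 in salt and 0.260% ± 0.00454 in distilled water, so the conditions differed by less than the spread in alkali. With the 4 mtr-miR7696 3p entries each counted, the shares were 0.346% ± 0.0178 in alkali, 0.329% ± 0.0106 in salt and 0.375% ± 0.0209 in distilled water. The 21-nt miRNAs numbered below 1000 had 17 of 63 profiles higher and 3 lower in alkali, with a median log2 fold change of 0.48. Those numbered from 1000 up to 5000 had 4 of 78 higher and 1 lower, with a median of 0.04. In salt the same groups had 6 of 63 higher and 6 lower (median 0.32), and 1 of 78 higher and 8 lower (median 0.03). No difference between these groups of miRNAs was tested.

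Across the 9 libraries, the miRNAs whose log2 CPM was most like that of mtr-miR5252 were mtr-miR5558-3p (Pearson r = 0.975), mtr-miR5561-5p (0.970) and unconservative_1_32743 (0.965), a predicted miRNA at 2577 CPM. For mtr-miR5251 they were mtr-miR171c (0.924), mtr-miR1510a-5p (0.920) and mtr-miR2086-5p (0.915), and for mtr-miR5558-5p they were mtr-miR171d (0.940), mtr-miR171f (0.926) and mtr-miR5211 (0.875). These values are descriptions over 9 libraries in 3 conditions, and they include what the libraries share in depth and composition.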

How the data were processed

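Per the methods of the study, the authors cut adapters from the reads, selected fragments of small RNA length, filtered out tRNA, rRNA and similar RNA with Bowtie and mapped what was left to the Medicago genome. They deposited raw read counts for each known or predicted miRNA. How reads of identical mature sequences were assigned is not given in the sources used here. Columns were matched to libraries through the sample labels, with 0 unmatched columns. The deposited TPM table holds the same counts divided by the library total and was not used here.

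The quasi-likelihood test of edgeR 4.0.16 (R 4.3.3) was run on the counts. The function filterByExpr, set to a minimum count of 10, chose the miRNAs tested, TMM scaled the libraries, and a single model with 1 term per condition and robust dispersions covered all 9. p-values were adjusted over all 647 miRNAs tested, and each standard error was taken from the log2 fold change and its F statistic. The procedure was also run on simulated counts, with balanced rises and falls put into the salt libraries only. Such a run cannot show how the calls depend on the scaling of the libraries. The alternatives were DESeq2 1.42.0, limma-voom (limma 3.58.1), other scalings, filters, thresholds and sample sets, the removal of single libraries and a block for the replicate number. Library sizes of clean reads came from the study's overview of its libraries. Leaving out DW1 and AS1 together, and counting the mtr-miR7696 3p entries once in sums of CPM or of shares, were added after the data were examined.

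The miRNAs described, and the lists they are set beside, were chosen with earlier results of these data known. Those named with values were the called ones, the 8 most abundant profiles, both arms of a precursor and the miRNAs most like the 3 with the largest called change. Any further miRNA was picked once its values had been looked at. Cell types were not checked, for want of marker miRNAs in whole seedlings. Coordinates and targets were not analysed here.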

Additional observations from a re-analysis of the deposited data

How the results depend on the processing

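The 9 called changes of the 6 miRNAs gave 178 values over the refits, 19 or 20 for each change. All 178 values kept their direction, and 123 stayed past the threshold. The changes were picked because they were called, and the refits reuse the same libraries, so a kept direction is no separate support. Some refits dropped only a library of the condition not compared. The number of high-numbered profiles called higher in alkali, 6 in the report, was 10 with DESeq2 or with DESeq2's size factors in edgeR, 1 with library sizes of clean reads, 0 with no TMM factor, 2 without DW1 and AS1 and 2 to 11 when 1 library was left out. In salt, 3 in the report, it was 0 with clean reads or no TMM factor, 6 with no filter or with only the conditions compared, 7 at an unadjusted p under 0.05 with a fold over 1.5, 1 without DW1 and AS1 and 0 to 8 when 1 library was left out. The number called lower, 0 in the report, was 4 in both treatments with no TMM factor and 4 in salt without DW1 and AS1. Each time these were the mtr-miR7696 3p entries, which share nearly all their reads. At an unadjusted p under 0.05 with a fold over 1.5 it was 1 in salt and 1 between alkali and salt. In alkali it was 0 to 1 when 1 library was left out. With the replicate block 4 rose in alkali and 1 in salt. Apart from the scalings, these counts stand without the calls over all profiles, so they do not show a change particular to the high-numbered miRNAs. The labels do not say that a number marks a shared dish or batch. The deviations of same-numbered libraries had correlations from -0.59 to 0.40, and 3 of 9 libraries were closest to one of their own number. Whether same-numbered libraries share more than a number was not tested. The summed level, 1.25 times distilled water in alkali and 1.03 times in salt with every distinct profile counted, was 0.923 and 0.877 times as a share of miRNA counts, 1.41 and 1.18 times with the mtr-miR7696 3p entries counted once, and 1.04 and 1.01 times with both. Of the 57 profiles detected, 35 had at least 10 reads in a library, and fold changes of miRNAs near that depth, such as mtr-miR5252, rest on few reads.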
